A study of Mus musculus with 5 samples.

Results

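The liver of the mouse embryo at E10.5 (E for embryonic day) was set against the foregut and the medial foregut at E8.5, the gut tissue that liver arises from. One RNA library came from each of these tissues, all from the C57BL/6J strain, and 2 further E10.5 libraries, of ventral and dorsal pancreas, are used here only for side-by-side levels. No embryo carried a mutation or treatment in the labels, and the sources used here do not give how the tissue was dissected or sorted, or whether embryos were pooled. The comparison used 3 of the 5 libraries of the series and 12375 loci with a gene name, of 14053 in all. In liver, 4727 of these loci were higher than in both E8.5 libraries, 6284 were lower than in both, and 1364 lay between them or equalled one.

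The liver starts as a thickening of the ventral foregut endoderm that meets the developing heart and the septum transversum, a sheet of mesoderm. Its cells, the hepatoblasts, leave the epithelium as cords, turn on genes for blood proteins and metabolism under factors such as HNF4A and C/EBPα, and are invaded by blood vessels and blood-forming cells. Around E8.5 the foregut is still a patterned tube that lies beside the heart, the neural tube and the notochord, and it is marked along its length by factors such as SOX2 and by the signal Sonic hedgehog.

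Levels are FPKM, in which the fragments of a transcript are divided by its length in kilobases and by the library's mapped fragments in units of 1000000. Differences are liver minus E8.5 in log2(FPKM + 1), a scale that understates differences of genes at low levels, and the value against foregut is given before that against medial foregut. A gene was called higher or lower when it differed from each E8.5 library by at least 2, which is 4 times in FPKM + 1, in the same direction, and reached 5 FPKM in liver (for a higher call) or in each E8.5 library (for a lower call). With 1 library per tissue there is no replicate error, no test and no p-value, and all values describe these libraries. In such bulk tissue, fewer cells of a type and less RNA per cell cannot be told apart.

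By this rule 283 loci were higher in liver (2.29% of those compared) and 262 were lower (2.12%). The same size between the 2 E8.5 libraries was passed by far fewer loci, 5 higher in foregut than in medial foregut (0.0404%) and 1 lower (0.00808%). The loci called higher held 9.49% of the summed FPKM of named loci in liver, against 0.510% in foregut and 0.446% in medial foregut. The liver share includes joined loci, which are treated as doubtful. Among them 2410017I17Rik,H2-Bl,H2-T10 alone stood at 4797 FPKM, where all named loci summed to 365966 FPKM in liver. Those called lower held 0.397% in liver, against 4.42% in foregut and 5.79% in medial foregut. The higher calls reached larger differences: 40 of them were 5 or more in size against both E8.5 libraries, compared with 6 of the lower ones. Over all named loci the median difference was -0.09 against foregut and -0.08 against medial foregut. At the edge of the rule, Sstr2 was just inside at 2.01 and Lhx2 and Smoc1 just outside at 1.99 and 1.97, and on the lower side Ephb3 was just inside at -2.01 and Unc5b just outside at -1.99.

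**Figure D1:**
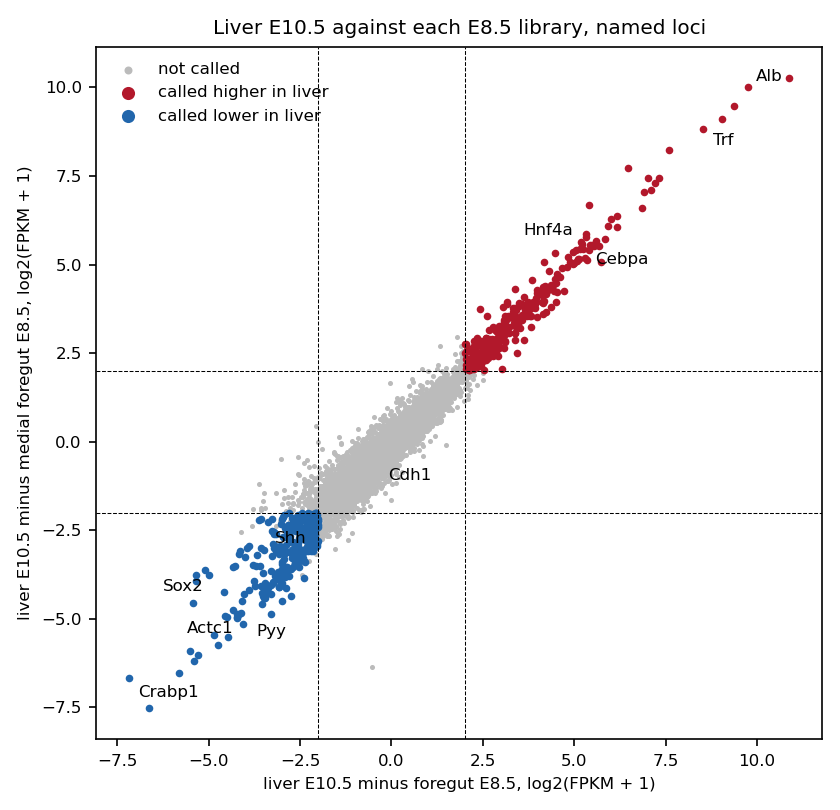
Each point is a named locus, with liver E10.5 minus foregut E8.5 on the horizontal axis and liver E10.5 minus medial foregut E8.5 on the vertical axis, both in log2(FPKM + 1); dashed lines mark differences of 2 in size, red points the 283 loci called higher in liver and blue points the 262 called lower. The points run along the diagonal, and Alb lies at 9.75 and 10.01 and Crabp1 at -7.17 and -6.68.

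The 6 single-name genes with the largest differences (by the smaller of the 2), Alb, Apoa2, Serpina6, Trf, Ambp and Serpind1, encode proteins that liver secretes into the blood. The largest difference of all, 10.88 and 10.25, was that of a joined class I antigen locus (2410017I17Rik,H2-Bl,H2-T10), at 4797 FPKM in liver, against 1.55 in foregut and 2.93 in medial foregut. Its reads cannot be assigned to 1 of the 3 genes. Of 13 measured carrier and binding proteins of plasma (those whose liver and E8.5 values averaged 1 FPKM or more; 15 of 31 listed were found), 12 were higher in liver and none lower, with a median difference of 5.10 and 5.15, beside -0.08 and -0.07 over all 10811 measured loci. Alb (chromosome 5, 90889928 to 90905626, mm9, as the table gives it), which encodes serum albumin, stood at 1051 FPKM in liver, against 0.226 in foregut and 0.0231 in medial foregut. Trf, for the iron carrier transferrin, stood at 1244 FPKM in liver, against 2.38 and 1.73 in foregut and medial foregut. Both E8.5 libraries were thus below 3 FPKM for Alb and Trf. Alb stood at 97.0 FPKM in ventral pancreas. Serpina6, for the globulin that carries corticosteroids, reached 603 FPKM in liver, against 0.146 in foregut and 0.0910 in medial foregut. Ambp, for a precursor of alpha-1-microglobulin, reached 898 FPKM in liver, against 3.61 in foregut and 2.01 in medial foregut. The member not called was Ttr, at 16.7 FPKM in liver, against 4.59 in foregut and 3.98 in medial foregut, and the strand of its locus is opposite to that annotated. Alb also shares its stretch of chromosome 5 with its relative Afm, at 58.1 FPKM in liver, against 0.0322 in foregut and 0.111 in medial foregut.

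Genes of blood clotting were called as a group. Of 19 measured members of the coagulation and fibrinolysis list (27 listed), 16 were higher in liver and none lower, with a median difference of 5.30 and 5.18, or 3.37 and 3.38 with a pseudocount of 5 FPKM. Fga, Fgb and Fgg, which encode the 3 chains of fibrinogen and lie side by side on chromosome 3 (82811153 to 82853912, mm9), were all called. Fgb was the most abundant of them at 661 FPKM in liver, against 15.6 in foregut and 11.1 in medial foregut. Fga stood at 169 FPKM in liver, against 0.473 in foregut and 0.753 in medial foregut. Fgg stood at 234 FPKM in liver, against 2.29 in foregut and 1.84 in medial foregut. The order Fgb, Fgg, Fga in FPKM was the same in liver and in both E8.5 libraries. F2, for prothrombin, stood at 148 FPKM in liver, against 0.233 in foregut and 0.128 in medial foregut. Plg, for plasminogen, the precursor of the enzyme that dissolves clots, stood at 329 FPKM in liver, against 7.22 in foregut and 4.65 in medial foregut. The largest difference in the list was that of Serpind1, for heparin cofactor II, at 7.32 and 7.43, from a locus that spans 1027% of the annotated gene.

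The sequences just before the annotated starts of Alb and of the fibrinogen genes are shown because all 4 were called higher and the fibrinogen genes are neighbours, and that of Sox2 because it was called lower. Each is the 250 bases before the start from RefSeq (GRCm38.p6), 5′ to 3′ on the gene's strand; capitals mark GTTAAT or its reverse complement ATTAAC, the core letters of the site of the liver factor HNF1.
Alb (chr5:90460620-90460869, + strand): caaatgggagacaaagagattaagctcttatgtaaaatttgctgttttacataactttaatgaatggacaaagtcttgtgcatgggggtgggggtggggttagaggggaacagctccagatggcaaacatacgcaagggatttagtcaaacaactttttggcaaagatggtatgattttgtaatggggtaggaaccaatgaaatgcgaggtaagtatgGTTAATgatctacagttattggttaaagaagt
Fga (chr3:83025903-83026152, + strand): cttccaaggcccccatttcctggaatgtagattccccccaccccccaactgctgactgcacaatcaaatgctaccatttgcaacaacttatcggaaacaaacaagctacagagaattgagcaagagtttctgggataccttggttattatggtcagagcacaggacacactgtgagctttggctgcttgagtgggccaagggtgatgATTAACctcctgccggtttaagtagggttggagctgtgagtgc
Fgb (chr3:83049864-83050113, - strand): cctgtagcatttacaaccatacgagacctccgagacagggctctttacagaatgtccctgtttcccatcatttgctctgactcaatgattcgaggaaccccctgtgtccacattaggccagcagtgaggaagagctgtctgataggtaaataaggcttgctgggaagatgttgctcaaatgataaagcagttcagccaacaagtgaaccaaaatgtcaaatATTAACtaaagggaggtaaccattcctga
Fgg (chr3:83007474-83007723, + strand): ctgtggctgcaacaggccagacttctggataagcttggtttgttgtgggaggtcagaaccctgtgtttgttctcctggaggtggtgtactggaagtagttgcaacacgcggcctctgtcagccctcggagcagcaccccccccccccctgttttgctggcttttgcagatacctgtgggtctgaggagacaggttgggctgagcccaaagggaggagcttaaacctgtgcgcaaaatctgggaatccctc
Sox2 (chr3:34649745-34649994, + strand): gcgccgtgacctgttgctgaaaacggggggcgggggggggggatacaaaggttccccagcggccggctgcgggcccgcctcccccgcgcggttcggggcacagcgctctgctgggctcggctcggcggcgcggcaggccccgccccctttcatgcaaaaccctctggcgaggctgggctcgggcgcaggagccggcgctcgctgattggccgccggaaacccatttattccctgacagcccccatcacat

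The letters occur once in the Alb, Fga and Fgb windows, with their first base 32, 43 and 29 bases before the start, and in neither the Fgg nor the Sox2 window. They were found, on either strand, in 352 of the 9059 windows of named loci (3.89%). The ratio of observed to expected CpG pairs was 0.261 for Alb and 0.833 for Sox2, beside a median of 0.720 over all windows. A match is a description of the letters and not a bound site. A window was at hand for 213 of the 269 loci with 1 name called higher (79.2%) and for 180 of the 254 called lower (70.9%), under the 80% set for comparing sets of genes, so a comparison of motif shares between the called sets is void.

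Apolipoproteins and complement followed the other blood proteins. Of 15 measured members of the lipoprotein list (25 listed), 10 were higher and none lower, with a median difference of 3.15 and 3.75. Apoa1, the main protein of high-density lipoprotein, stood at 618 FPKM in liver, against 8.56 in foregut and 6.91 in medial foregut. Apoa2, the second protein of that particle, stood at 1618 FPKM in liver, against 1.44 in foregut and 1.29 in medial foregut, from a locus that spans 669% of the annotated gene. Apob and Mttp, the scaffold of low-density lipoprotein and the transfer protein that loads it, were already measurable at E8.5. Mttp stood at 107 FPKM in liver, against 12.2 in foregut and 12.02 in medial foregut, a difference of 3.03 and 3.05. For complement, 5 of 7 measured members (21 listed) were higher, led by C3, the central component, at 75.1 FPKM in liver, against 0.0565 in foregut and 0.147 in medial foregut.

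Some of the called genes lay next to each other. Of the 283 loci called higher, 63 (22.3%) had another such locus at other coordinates within 100000 bp, beside 862 of all 12375 named loci (6.97%) that had one. Of the 262 called lower, 14 (5.34%) had a lower one that near, beside 5.07% of all named loci, so their share was near the background. The longest run, with 5 loci, was the Serpina cluster on chromosome 12, which holds Serpina6, Serpina10 and the alpha-1-antitrypsin genes; these near-identical copies can share reads. In the table the Serpina1c locus and the joined Serpina1a, Serpina1b and Serpina1e locus have the same coordinates, as have Serpina10 and Ppp4r4. Others were Apoc2, Apoc1, the joined Apoe and Tomm40 locus and Bcl3 on chromosome 7, the aldo-keto reductases Akr1c12, Akr1c13 and Akr1c19 on chromosome 13, and F7 with F10 on chromosome 8. On the lower side the runs included the heart myosin genes Myh6 and Myh7 on chromosome 14 and the troponin genes Tnni1 and Tnnt2 on chromosome 1.

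Factors that control liver genes were mostly on the higher side, and only some were called. Of 25 measured members of the list (33 listed, 28 found), 10 were called higher in liver and none lower. At any size, 21 were higher than in both E8.5 libraries and 2 were lower, beside 4256 and 5409 of all 10811 measured loci. The median difference was 1.86 and 1.89, or 1.04 and 1.13 with a pseudocount of 5 FPKM. Hnf4a (chromosome 2, 163332558 to 163398641, mm9), a nuclear receptor that drives hepatocyte genes, was at 158 FPKM in liver, against 3.30 in foregut and 2.30 in medial foregut. Cebpa, a leucine zipper factor of metabolic genes, stood at 47.3 FPKM in liver, against 0.282 in foregut and 0.111 in medial foregut. These were the largest differences among the factors, 5.20 and 5.59 for Hnf4a and 5.23 and 5.44 for Cebpa. The other called members were Creb3l3, Hlf, Mlxipl, Nr5a2, Foxa3, Klf15, Onecut2 and Prox1, for which the smaller of the 2 differences ran between 2.24 and 3.56. The strand of the Prox1 locus is opposite to that annotated, and Onecut2 rests on a locus under 30% of the annotated span.

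Hhex, Foxa2, Gata4 and Tbx3, factors that also act as the liver forms, were not called. Hhex, a homeobox gene needed for the liver bud, stood at 71.2 FPKM in liver, against 45.7 in foregut and 58.5 in medial foregut. Foxa2, a forkhead factor of all gut endoderm, stood at 24.0 FPKM in liver, against 18.2 in foregut and 12.4 in medial foregut. For both, the liver value was above the E8.5 values by less than 1 on the log2 scale. Gata4, a zinc finger factor of endoderm, heart and septum transversum, stood at 19.7 FPKM in liver, against 46.6 in foregut and 78.0 in medial foregut, so it lay on the lower side without reaching 2. Tbx3, needed for hepatoblasts to spread, stood at 31.5 FPKM in liver, against 9.35 in foregut and 16.3 in medial foregut, on the higher side without reaching 2. The defining liver genes Alb, Trf, Apoa1 and Hnf4a were thus all present in the library labelled liver.

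**Figure D2:**
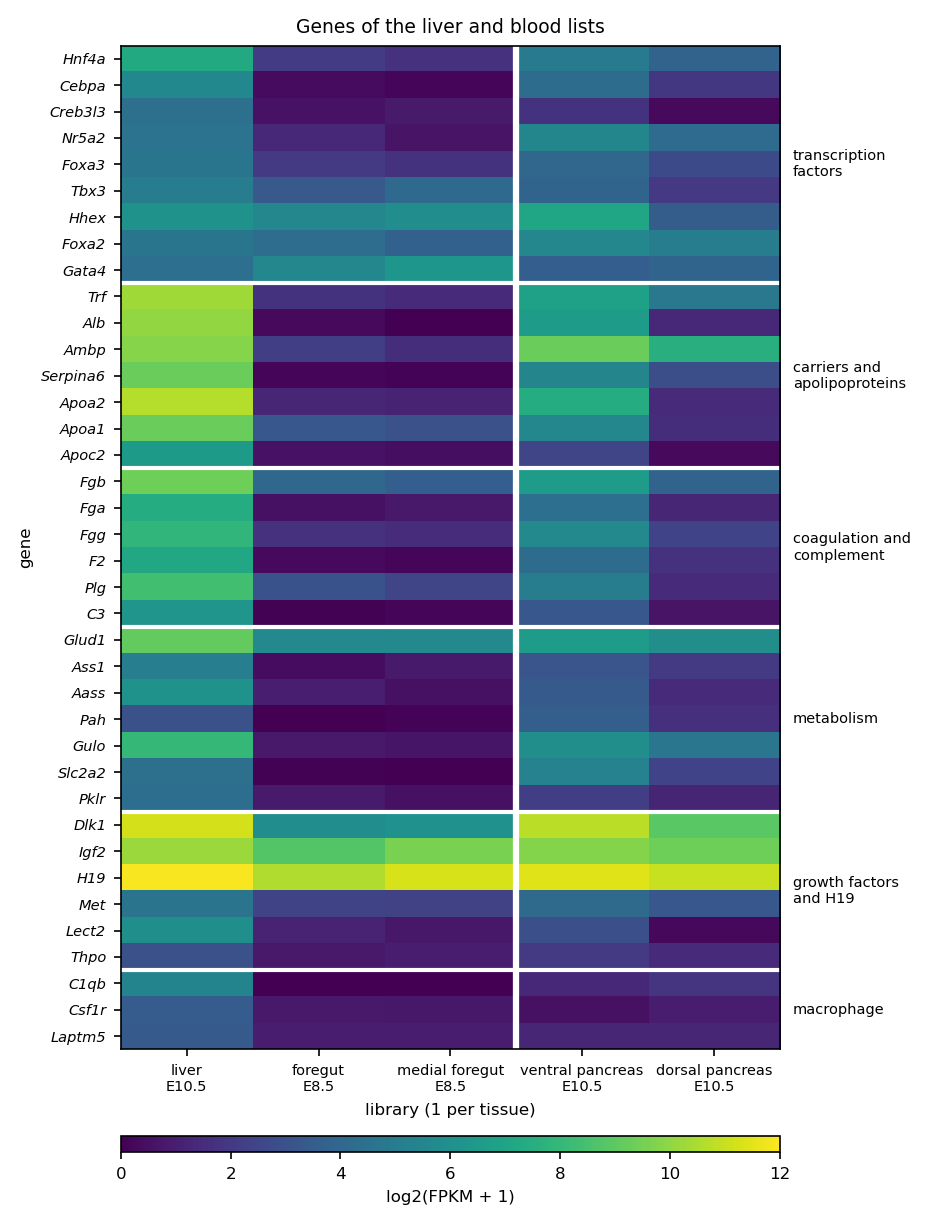
Rows are genes in groups named at the right, columns are the 5 libraries (1 per tissue), and colour gives log2(FPKM + 1) on a scale of 0 to 12. Blood protein genes are bright in liver E10.5 and dark in both E8.5 columns, as for Alb at 1051 FPKM in liver, against 0.226 in foregut and 0.0231 in medial foregut, while Hhex and Foxa2 have similar colours in all 3.

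Metabolic enzymes were the other large group on the higher side. Of 23 measured amino acid and urea cycle genes (43 listed), 14 were higher and none lower, with a median difference of 2.62 and 2.86. Glud1, for the glutamate dehydrogenase of mitochondria, stood at 558 FPKM in liver, against 49.7 in foregut and 48.4 in medial foregut, from a locus that spans 322% of the annotated gene. Aass, the first enzyme of lysine breakdown, stood at 71.7 FPKM in liver, against 1.01 in foregut and 0.455 in medial foregut. Ass1 and Nags, which act in the urea cycle, were both called, and Ass1 stood at 33.9 FPKM in liver, against 0.318 in foregut and 0.820 in medial foregut. Arg1, the last enzyme of that cycle, lay on the lower side without being called, at 8.53 FPKM in liver, against 34.9 in foregut and 30.4 in medial foregut; its locus spans 723% of the annotated gene. The urea cycle genes that could be measured were thus not all on one side.

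Sugar and fat genes were partly called. Slc2a2, the glucose transporter of hepatocytes and beta cells, stood at 20.6 FPKM in liver, against 0.0538 in foregut and 0.00791 in medial foregut. The transporters that most embryonic cells use were lower: Slc2a1 stood at 40.2 FPKM in liver, against 251 in foregut and 205 in medial foregut. Slc2a3 stood at 24.5 FPKM in liver, against 337 in foregut and 433 in medial foregut. Thus Slc2a2 was higher in liver and Slc2a1 and Slc2a3 were lower. The glycolysis and glucose transport list had 2 genes higher, 2 lower and 23 not called of 27 measured. Shares called over all named loci were 2.29% higher and 2.12% lower. The median difference of the list was -0.48 and -0.58. Gys2, the glycogen synthase of liver, stood at 16.7 FPKM in liver and was listed at 0 in both E8.5 libraries. Of 52 measured genes of fatty acid and sterol metabolism (64 listed), 8 were called higher and none lower. At any size, 44 were higher in liver than in both E8.5 libraries, beside 4256 of all 10811 measured loci. Their median difference was 0.85 and 1.12. Fabp5, a fatty acid carrier of cells, stood at 465 FPKM in liver, against 59.0 in foregut and 56.3 in medial foregut.

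In the list for P450 enzymes, conjugation and bile, most measured genes were not called. Of 67 genes listed, 34 were found and 21 measured, of which 4 were called higher, beside 2.29% of all named loci, and none lower. These were the glutathione transferase Gstm1, at 133 FPKM in liver, against 8.76 in foregut and 9.05 in medial foregut, and Ugt2b34, Abcc6 and Aldh1l1. Outside the list, and chosen after their values were seen, the joined P450 locus Cyp2c40,Cyp2c68,Cyp2c69 stood at 137 FPKM and Cyp2c70 at 9.22 FPKM in liver, and both were listed at 0 in both E8.5 libraries. Gulo, for the last enzyme of vitamin C synthesis, which mice make in the liver, was the seventh largest difference among single-name loci. It stood at 255 FPKM in liver, against 0.741 in foregut and 0.620 in medial foregut. In the iron list 2 of 16 measured genes were called higher: Tmprss6, a protease that restrains the iron hormone hepcidin, and Slc40a1, the exporter ferroportin. Tmprss6 stood at 14.2 FPKM in liver, against 0.0310 in foregut and 0.0370 in medial foregut.

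The lists for secretion, respiration and cell division had no calls. None of 55 measured genes of the secretory pathway of the endoplasmic reticulum was called, yet 48 were higher in liver than in both E8.5 libraries at any size, with a median difference of 0.65 and 0.42. Hspa5, the main chaperone there, stood at 996 FPKM in liver, against 481 in foregut and 605 in medial foregut. None of 47 measured genes of oxidative phosphorylation was called, and 40 were higher at any size, with a median difference of 0.42 and 0.26. Over all measured loci, 4256 of 10811 were higher in liver than in both. A further 5409 of these 10811 loci lay below both E8.5 libraries. None of 45 cell cycle genes was called, and 12 were higher and 27 lower at any size. Among them Ccnd1, for cyclin D1, stood at 109.6 FPKM in liver, against 29.6 in foregut and 22.0 in medial foregut, and Kif23, a motor of cell division, at 13.02 FPKM in liver, against 50.7 in foregut and 49.9 in medial foregut.

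Genes for secreted and membrane signals of fetal liver were mostly on the higher side. Of 23 measured growth factors and hepatokines (31 listed), 7 were called higher and 1 lower. Dlk1 (chromosome 12, 110690142 to 110701540, mm9), an imprinted membrane protein that marks hepatoblasts, stood at 2377 FPKM in liver, against 57.4 in foregut and 66.7 in medial foregut. It had the fourth highest level in the liver library among single-name loci, and in pancreas it was at 1718 FPKM (ventral) and 485 FPKM (dorsal). Other imprinted fetal genes did not share its difference, and of 24 measured only Dlk1 was called higher and Phlda2 lower. The shares called over all named loci were 2.29% higher and 2.12% lower. H19, a noncoding RNA with the highest level in liver among single-name loci, stood at 3808 FPKM in liver, against 1499 in foregut and 2492 in medial foregut. Igf2, the fetal growth factor next to it, stood at 1154 FPKM in liver, against 448 in foregut and 759 in medial foregut. Met, the receptor for hepatocyte growth factor, stood at 23.3 FPKM in liver, against 4.52 in foregut and 4.14 in medial foregut. Thpo, for thrombopoietin, and Cxcl12, a chemokine that holds blood-forming cells, were also called. Igfbp2, which binds insulin-like growth factors, was lower, at 10.3 FPKM in liver, against 99.1 in foregut and 68.2 in medial foregut.

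Genes of foregut pattern were lower in liver. Of 27 measured members (48 listed), 13 were called lower and none higher, with a median difference of -2.40 and -2.95, which was -4.11 and -4.89 with a pseudocount of 0.1 FPKM and -1.03 and -1.30 with 5 FPKM. Sox2, a factor of the anterior gut and of the neural tube, stood at 0.161 FPKM in liver, against 38.9 in foregut and 13.4 in medial foregut; its locus is far wider than the gene. Irx1, an Iroquois homeobox gene, stood at 0.0806 FPKM in liver, against 16.7 in foregut and 20.3 in medial foregut. Isl1, a factor of foregut mesoderm, heart and pancreas, stood at 0.318 FPKM in liver, against 5.88 in foregut and 17.8 in medial foregut. Each of these was below 1 FPKM in liver. Pyy, a gut peptide hormone, stood at 1.93 FPKM in liver, against 47.6 in foregut and 103 in medial foregut. Sfrp5, a secreted Wnt inhibitor of ventral foregut, stood at 4.28 FPKM in liver, against 106 in foregut and 141 in medial foregut. Of 24 measured early embryonic genes, 4 were called lower and none higher: Pou5f1, the pluripotency factor Oct4, the Nodal pathway genes Tdgf1 and Lefty2, and Zic2. Tdgf1 stood at 0.0401 FPKM in liver, against 9.22 in foregut and 29.1 in medial foregut.

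The Hedgehog pathway was lower as a whole at any size, with 15 of 16 measured genes below both E8.5 libraries and 4 of them called. Over all 10811 measured loci, 5409 were below both, and 2.12% of all named loci were called lower. Shh, the ligand, stood at 0.00678 FPKM in liver, against 10.2 in foregut and 7.35 in medial foregut. Gli1, a factor that is itself a target of the signal, stood at 0.996 FPKM in liver, against 22.8 in foregut and 15.1 in medial foregut. Gli2 and Gli3, which carry the signal to the nucleus, were also called lower. The receptor Ptch1 was not called, at 15.2 FPKM in liver, against 75.4 in foregut and 52.1 in medial foregut. The median difference of the list was -1.94 and -1.69. The exception was Ihh, the Indian hedgehog ligand, at 4.72 FPKM in liver, against 1.329 in foregut and 1.11 in medial foregut.

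Of 14 measured genes of the retinoic acid list, 4 were called lower and none higher. Crabp1, a binding protein of retinoic acid that is abundant in hindbrain and neural crest, had the largest fall among single-name loci by the smaller of its 2 differences, at 2.18 FPKM in liver, against 457 in foregut and 325 in medial foregut. Crabp2 stood at 7.90 FPKM in liver, against 359.7 in foregut and 134 in medial foregut. Aldh1a2, which makes retinoic acid in mesoderm, stood at 2.51 FPKM in liver, against 35.4 in foregut and 15.96 in medial foregut, and Stra6, the membrane receptor for retinol carriers, was also called. At any size, 5 of the 14 were higher in liver than in both E8.5 libraries and 9 were lower. Over all 10811 measured loci, 4256 were higher than in both and 5409 were lower. Of all named loci, 2.29% were called higher and 2.12% lower.

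**Figure D3:**
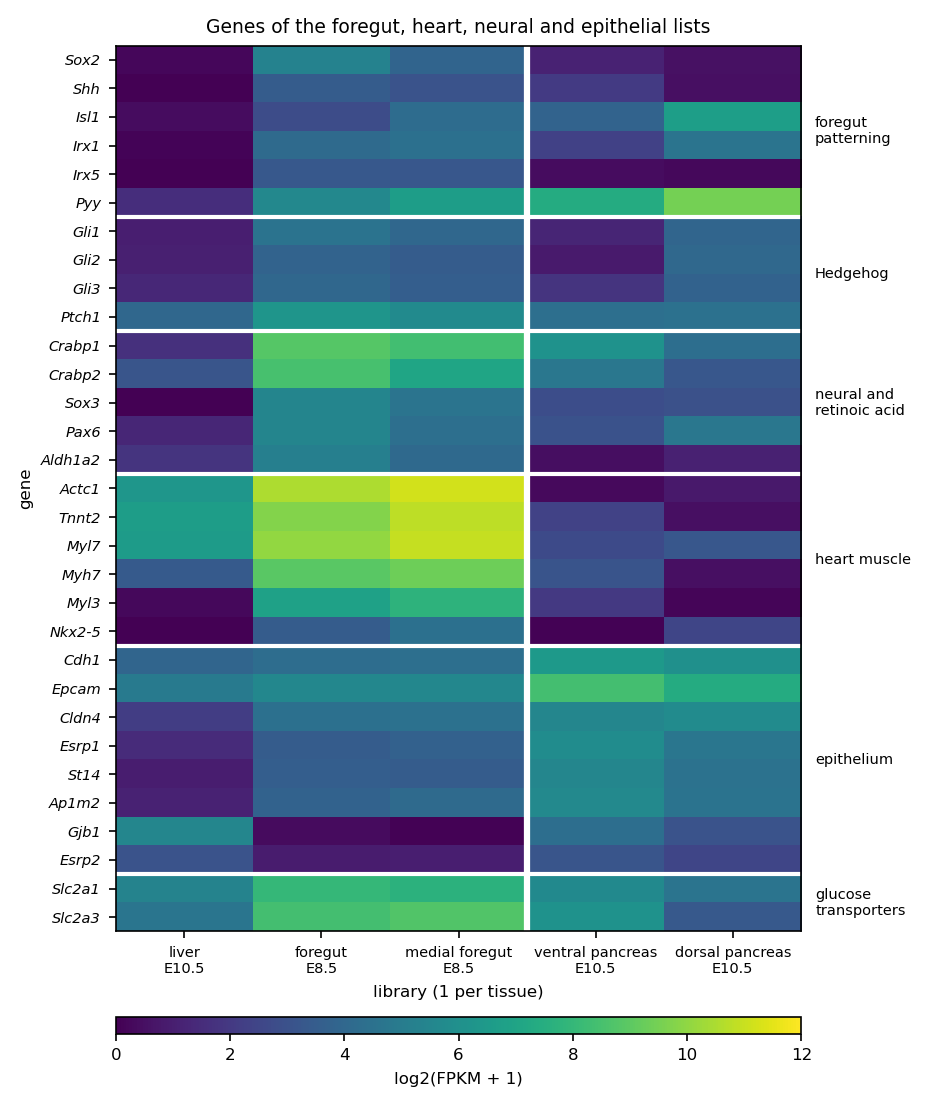
Rows are genes in groups named at the right, columns are the 5 libraries (1 per tissue), and colour gives log2(FPKM + 1) on a scale of 0 to 12. Sox2, Shh and Crabp1 are dark in liver E10.5, and heart muscle genes are brightest in the E8.5 columns, as for Actc1 at 77.9 FPKM in liver, against 1487 in foregut and 2297 in medial foregut.

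In the other signalling lists most genes were not called, and more were lower than higher, beside 2.29% higher and 2.12% lower over all named loci. In the Wnt list 1 of 50 measured genes was higher and 7 were lower. Lgr5, a receptor for R-spondins, stood at 22.9 FPKM in liver, against 1.79 in foregut and 1.39 in medial foregut. Lef1, which carries Wnt signals on DNA, stood at 1.38 FPKM in liver, against 17.9 in foregut and 24.3 in medial foregut, and the ligands Wnt2 and Wnt5a were also lower. In the FGF list Klb, the co-receptor for endocrine FGFs, was called higher, at 18.2 FPKM in liver, against 1.23 in foregut and 0.807 in medial foregut, and Fgf13, Fgf15 and Flrt3 were lower, of 23 measured. In the BMP and TGF-beta list Gdf15 was higher and Bmp2, Bmp5, Bmper, Msx1, Lefty2 and Tdgf1 were lower, of 41 measured. Bmp2, a ligand of the BMP family, whose signals promote liver fate, stood at 2.67 FPKM in liver, against 14.7 in foregut and 28.1 in medial foregut. The Notch ligand Jag1 stood at 1.73 FPKM in liver, against 17.0 in foregut and 25.5 in medial foregut. The axon guidance genes Ephb3, Nrp2, Slit2 and Efnb2 were lower, of 44 measured, with a list median of -1.29 and -1.15.

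Epithelial genes were mixed. Of 42 measured members, 2 were called higher and 5 lower, with a median difference of -0.62 and -0.80. Cdh1, for E-cadherin, stood at 14.0 FPKM in liver, against 18.5 in foregut and 20.2 in medial foregut. Epcam, another adhesion protein, stood at 28.4 FPKM in liver, against 45.6 in foregut and 46.5 in medial foregut. Neither was called, and both were lower in liver by less than 1. Gjb1, for connexin 32, the gap junction protein of hepatocytes, stood at 44.4 FPKM in liver, against 0.259 in foregut and 0.0463 in medial foregut. The splicing factors Esrp1 and Esrp2, both typical of epithelia, went opposite ways. Esrp1 stood at 1.77 FPKM in liver, against 10.2 in foregut and 12.1 in medial foregut, and Esrp2 at 7.37 FPKM in liver, against 0.873 in foregut and 1.003 in medial foregut; the Esrp2 locus spans 1189% of the annotated gene. Krt19 and Cldn4, from loci that span 1525% and 2332% of the annotated genes, were lower, as were St14 and Ap1m2. The laminin receptor subunits Itga6 and Itga3 were lower too. In the motility and matrix remodelling list, which holds both, these 2 were lower and Met was higher, of 37 measured. Over all named loci, 2.29% were called higher and 2.12% lower.

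Matrix genes were called in both directions. Col3a1, a collagen of loose connective tissue, stood at 34.3 FPKM in liver, against 2.18 in foregut and 2.78 in medial foregut. Col1a1 and Eln, for collagen I and elastin, were called higher as well. Col2a1, the collagen of notochord and cartilage, stood at 2.01 FPKM in liver, against 168 in foregut and 279 in medial foregut. Lama1, Vcan, Hapln1 and Col12a1 were called lower, so the list had 3 higher and 5 lower of 39 measured. The shares called over all named loci were 2.29% higher and 2.12% lower. Reln, a secreted protein made by stellate cells among others, stood at 261 FPKM in liver, against 29.7 in foregut and 23.1 in medial foregut.

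Markers of other cell types moved with these differences, and their part in the results was not tested. The largest block was heart muscle: of 29 measured cardiomyocyte genes, 22 were called lower and 1 higher, with a median difference of -3.09 and -4.06. Their summed level was 762 FPKM in liver, against 6392 in foregut and 10821 in medial foregut, and none of the 29 was listed at 0 in any of these 3 libraries. Actc1, the cardiac actin gene, stood at 77.9 FPKM in liver, against 1487 in foregut and 2297 in medial foregut. Myl3, a myosin light chain, stood at 0.186 FPKM in liver, against 116 in foregut and 215 in medial foregut. Heart muscle messages were thus among the most abundant of the E8.5 libraries, and part of them, such as Tnnt2 at 102 FPKM, was still measured in the liver library. Shox2, a factor of the venous pole of the heart, was the member called higher, at 10.8 FPKM in liver, against 1.42 in foregut and 0.736 in medial foregut. Tbx18, another gene of the venous pole and of mesothelium, was also higher, at 10.45 FPKM in liver, against 0.834 in foregut and 0.704 in medial foregut. So were the mesothelial genes Wt1 and Upk3b, while Hand1, Podxl, Krt19 and Aldh1a2 of the same list were lower, of 19 measured. The Krt19 locus spans 1525% of the annotated gene. Shares called over all named loci were 2.29% higher and 2.12% lower.

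Neural tube markers were called lower in 6 of 17 measured genes and higher in none. The summed level of the 22 found members was 112 FPKM in liver, against 777 in foregut and 513 in medial foregut. Of these members, 4 were listed at 0 in liver and 1 in medial foregut. Sox3 and Pax6, both from loci wider than the genes, and Sox1 were among those called, and Sox3 stood at 0.0253 FPKM in liver, against 43.3 in foregut and 23.2 in medial foregut. Of 16 measured neural crest genes, Crabp1, Msx1 and Prrx2 were called lower and none higher, beside 2.12% and 2.29% of all named loci. Crabp1 also stands in the neural tube and retinoic acid lists.

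Blood and vessel markers differed by type. None of 29 measured endothelial genes was called. The summed level of the 31 found was 267 FPKM in liver, against 279.6 in foregut and 366 in medial foregut. Pecam1 stood at 10.1 FPKM in liver, against 7.66 in foregut and 10.3 in medial foregut. Of 9 measured leukocyte and macrophage genes (31 listed, 10 found), 6 were called higher and none lower. C1qb and C1qc, which encode chains of complement C1q made by macrophages, stood at 41.3 and 14.5 FPKM in liver and were listed at 0 in both E8.5 libraries. Csf1r, the receptor that macrophages depend on, stood at 10.1 FPKM in liver, against 0.794 in foregut and 0.698 in medial foregut. Without Elane, also a partial locus, the leukocyte list summed to 149.6 FPKM in liver, against 17.4 in foregut and 18.0 in medial foregut. Of the 9 remaining members, 3 were at 0 in each E8.5 library and none in liver. With Elane the list summed to 741 FPKM in liver, against 471 in foregut and 530 in medial foregut. Most listed red cell genes were not found, and of 10 measured (32 listed, 13 found) Hbb-y, an embryonic globin, was called higher and Car2 lower. Shares called over all named loci were 2.29% higher and 2.12% lower. Hbb-y stood at 22.0 FPKM in liver, against 1.73 in foregut and 1.495 in medial foregut, from a locus that spans 226% of the annotated gene. In ventral pancreas Hbb-y stood at 111 FPKM.

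The yolk sac's visceral endoderm shares many genes with liver, and of 13 measured markers of it 6 were higher in liver and 1 lower. Those higher were Fgb, Hnf4a, Slc2a2, Soat2, Spp2 and Pla2g12b, of which Fgb, Hnf4a, Slc2a2 and Soat2 also stand in the liver lists. Spp2, for a secreted phosphoprotein, stood at 54.5 FPKM in liver, against 3.70 in foregut and 4.17 in medial foregut. Pancreas markers (23 listed, 17 found) were called lower in 3 of 6 measured, Isl1, Pax6 and Pyy, and higher in none. Isl1 and Pyy are also counted above among the foregut pattern genes and Pax6 among the neural tube markers. Mesenchyme and smooth muscle markers were called in both directions, 4 each of 28 measured, beside 2.29% higher and 2.12% lower over all named loci. Acta2, for smooth muscle actin, stood at 133 FPKM in liver, against 635 in foregut and 1042 in medial foregut. Its locus spans 442% of the annotated gene.

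**Figure D4:**
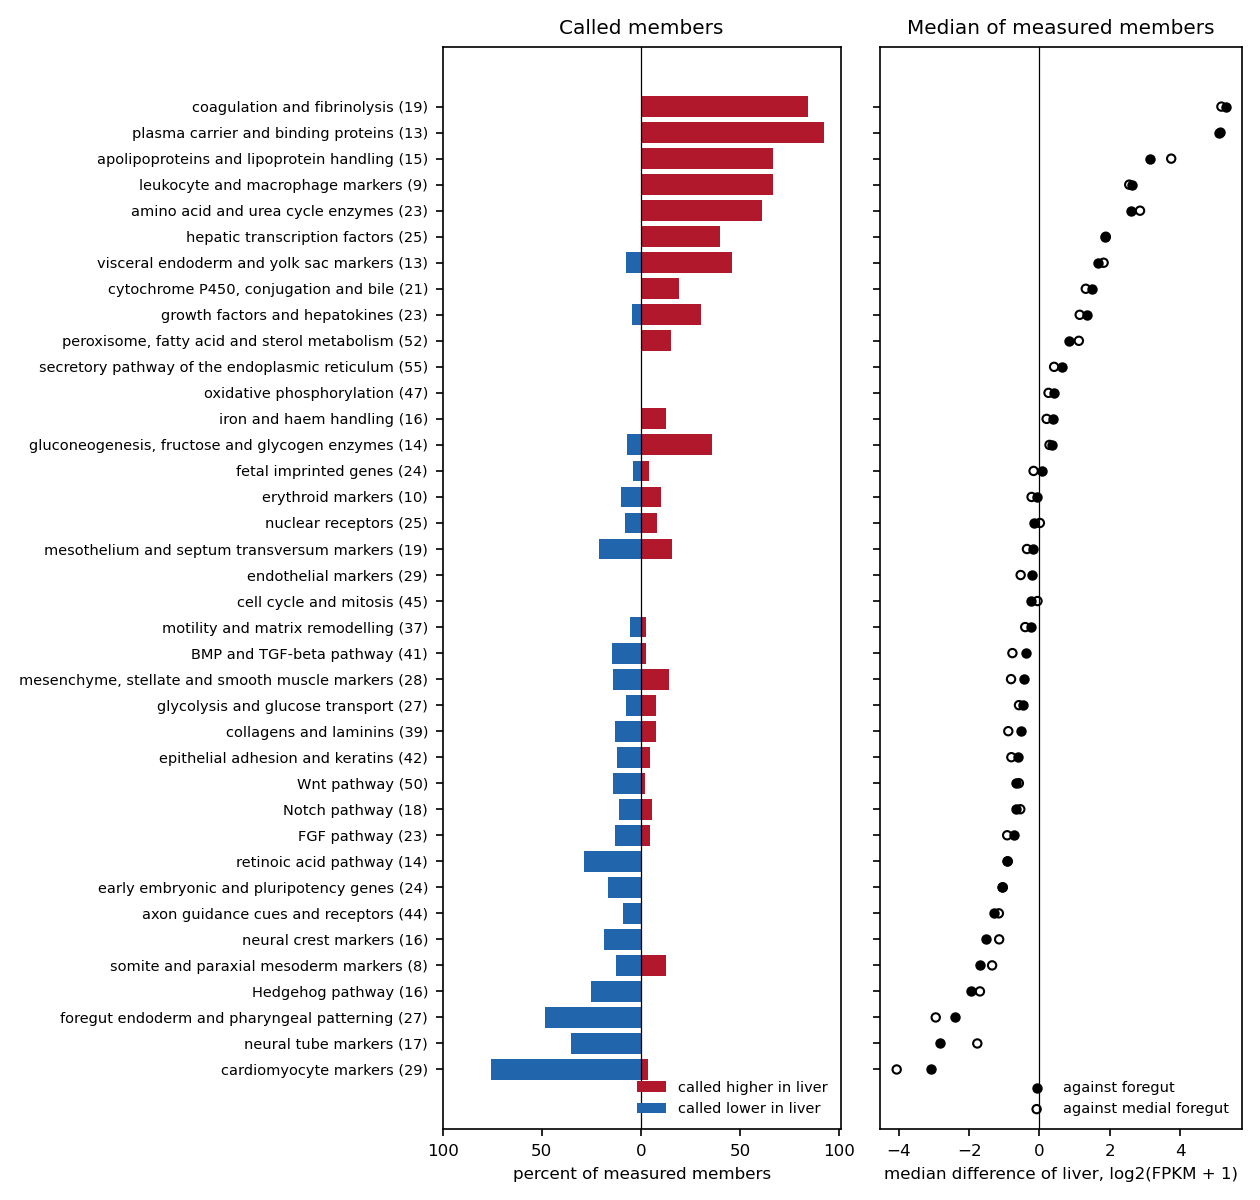
For each gene list with at least 8 measured members (number in brackets), the left panel gives the percent of measured members called higher (red, to the right) or lower (blue, to the left) in liver E10.5 against both E8.5 libraries, and the right panel the median difference in log2(FPKM + 1) against foregut (filled) and medial foregut (open). Coagulation lies at the top with medians of 5.30 and 5.18 and cardiomyocyte markers at the bottom with -3.09 and -4.06.

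The lists did not cover most of the called loci: 167 of the 283 higher and 165 of the 262 lower were in none of the 43 lists. Among them Phgdh, the first enzyme of serine synthesis, stood at 1164 FPKM in liver, against 162 in foregut and 130.3 in medial foregut. The genes that follow were chosen after their values were seen. B2m, the light chain of class I antigen-presenting molecules, stood at 211 FPKM in liver, against 34.1 in foregut and 30.3 in medial foregut, and the heavy chain gene H2-K1 at 95.5 FPKM in liver, against 19.7 in foregut and 22.3 in medial foregut. Both were called higher, as were H2-Q6 and H2-Q8, which are similar copies that can share reads. Xist, the RNA of the inactive X chromosome in female cells, stood at 6.96 FPKM in liver, against 58.4 in foregut and 49.4 in medial foregut. The Y-linked gene Eif2s3y stood at 29.1 FPKM in liver, against 15.7 in foregut and 17.0 in medial foregut, so markers of both sexes were measured in all 3 libraries, with more of the male and less of the female marker in liver. The sources used here do not give the sex of the embryos, and its part in other differences was not tested.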

How the data were processed

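Poly(A) RNA was reverse transcribed with random hexamers and sequenced in pairs of reads, with no strand marking in the labels' protocols, so reads from overlapping antisense genes are not separable. The authors deposited 1 table of FPKM values per locus, per the file headers. TopHat 1.33, Cufflinks 1.3.0 and mm9 are listed, with no role or order, in the submitters' processing notes. Depth in reads is unknown: of 329 loci under 0.2 FPKM in both E8.5 libraries, 4 shared the most common ratio, so no read counts were recovered.

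Values were used as deposited. From the deposited FPKM, log2 values were computed with a pseudocount of 1 FPKM. Loci without a name (1678) were left out. Loci with joined names, no strand, the other strand, or under 30% of the span of the GENCODE M21 gene of that name were treated as doubtful. Genes are named by rank (the 25 highest and 25 lowest by the smaller difference, the 15 highest levels in liver), by list (up to 6 a direction) or from a short fixed set. The loci, lists and rules were chosen with earlier results of these data known. Gene lists held 43 sets, matched by name or synonym. Python 3.11.15, pandas 2.3.3 and numpy 2.4.6 were used. Some genes are not reported here.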

Additional observations from a re-analysis of the deposited data

Results flagged for a closer look

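For 12 called loci, 2 higher and 10 lower in liver, both pancreas libraries lay on the opposite side of both E8.5 libraries, by any amount. No size was asked of the pancreas differences, and some were small. In dorsal pancreas, Xist lay 0.13 and 5730559C18Rik 0.06 above foregut in log2(FPKM + 1). With 1 library per tissue the opposite direction in pancreas was not tested, and liver and pancreas are set against the same E8.5 libraries. In brackets is the smaller of the 2 liver differences.

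Of the lower loci, 4 belong to the epithelial list. That each was higher in both pancreas libraries than at E8.5 follows from how the 12 were chosen. Krt19, the other epithelial gene called lower, was not among them. It had 24.1 and 12.2 FPKM in ventral and dorsal pancreas, against 24.1 in foregut and 28.5 in medial foregut. Esrp1 (-2.02) had 1.77 FPKM in liver, 56.6 and 25.4 in ventral and dorsal pancreas, against 10.2 in foregut and 12.1 in medial foregut. Cldn4 (-2.26) had 3.57 FPKM in liver, 44.6 and 54.3 in ventral and dorsal pancreas, against 20.9 in foregut and 21.6 in medial foregut. The Cldn4 locus spans 2332% of the annotated gene. St14 (-2.51) had 0.942 FPKM in liver and 44.7 and 22.0 in ventral and dorsal pancreas, and Ap1m2 (-2.64) had 1.19 FPKM in liver and 49.2 and 23.0. The hormone gene Pyy (-4.05) had 1.93 FPKM in liver and 167 and 722 in ventral and dorsal pancreas. Xist (-2.66) had 6.96 FPKM in liver and 119 and 64.0 in ventral and dorsal pancreas. The others were Fxyd6 (-2.94), 5730559C18Rik (-2.42), Hmgn3 (-2.02) and Ptpn13 (-2.22), the last from a locus under 30% of the annotated span.

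The 2 higher loci were Sord (3.05), for sorbitol dehydrogenase, and Fkbp11 (2.03), a foldase of the secretory pathway. Sord had 80.2 FPKM in liver, 6.83 and 4.76 in ventral and dorsal pancreas, against 8.49 in foregut and 8.80 in medial foregut.

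Among the 1678 loci without a gene name, which the comparison left out, 12 were higher in liver (0.715%) and 4 were lower (0.238%) by the same rule. The highest liver value among the 12 was 1103 FPKM, and the highest E8.5 value among the 4 was 195 FPKM.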

How the results depend on the processing

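The numbers of higher and lower loci, 283 and 262, stayed within 1.5 times of these under a pseudocount of 0.1 FPKM, no filter on level, a level of 10 FPKM, both rescalings, either E8.5 library alone, and without doubtful loci. A pseudocount of 5 FPKM gave 143 and 78, a smallest difference of 1 gave 649 and 753, and one of 3 gave 150 and 80. Rescaling to a total of 1000000 gave 343 and 393 and moved the median over all loci to -0.23 against foregut. The deposited totals were 503182 in liver, 456635 in foregut and 506529 in medial foregut, so this rescaling also raised every value above 0. The pseudocount of 1 and the level of 5 were kept, so these counts do not show the effect of library totals alone. Leaving out loci over 200% of the annotated span, chosen after seeing the data, gave 255 and 239. Between foregut and medial foregut, 5 higher and 1 lower became 8 and 3 with a pseudocount of 0.1 FPKM, and 0 higher with 5 FPKM. The longer HNF1 site, GTTAATNAT, was found in 0.497% of windows, against 3.89% for the core letters.

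Of 86 list medians (43 lists against each E8.5 library), those that changed sign were 1 with median ratios, 2 with total rescaling, 3 at a mean of 5 FPKM, 1 without doubtful loci, 2 over all found members (added after seeing the data) and 0 with either pseudocount. Those that moved by 0.5 or more were 36 with a pseudocount of 5 FPKM, 24 with 0.1 FPKM, 16 at a mean of 5 FPKM, 12 over all found members, 7 with total rescaling, 1 without doubtful loci and 0 with median ratios. With a pseudocount of 5 FPKM the medians against foregut and medial foregut were 1.72 and 1.84 for amino acid enzymes, -1.20 and -0.89 for Hedgehog and -0.71 and -0.64 for axon guidance. The medians that changed sign belonged to the imprinted, erythroid, megakaryocyte and nuclear receptor lists. No paired analysis was possible because each tissue has 1 library. The libraries' depth is unknown, so low values carry no interval.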
